A study of Danio rerio with 5 samples.

Results

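The late-listed circular RNAs (circRNAs) of zebrafish embryos were those with no junction read listed at 4.5 and 8 hours post fertilization (hpf) and with reads in at least 2 of the libraries of 24, 48 and 72 hpf. Of 9559 circRNAs listed in the series, 453 met this rule. The embryos were wild-type fish of the strain that the labels spell Tubingenz, obtained by spontaneous mating and staged by their morphology, and the labels name no treatment. There was 1 library of ribosomal RNA-depleted total RNA from embryos at each of 4.5 hpf (blastula), 8 hpf (gastrula), 24 hpf (segmentation), 48 hpf (a stage labelled throat) and 72 hpf (a stage labelled incubation). The number of embryos behind a library was not given in the sources used here. All 5 libraries were strand-specific and came from bulk RNA, in which fewer cells of a type and less RNA per cell cannot be told apart. Because 1 library stood for each stage, no difference between stages has a replicate check, no p-value was computed, and every interval covers counting error only.

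A circRNA is a closed RNA ring made by back-splicing, in which the end of a downstream exon is joined to the start of an upstream exon of the same transcript. The ring has no free ends, is therefore resistant to exonucleases, and can build up in cells that divide little. In the early zebrafish embryo most RNA comes from the egg until the embryo's own genome becomes active around the blastula stage, while muscle, heart, brain and eyes form during segmentation and later. In many animals circRNAs are abundant in nervous tissue. These statements are background and were not measured here.

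The rule was applied to the values themselves, so the absence of the late-listed circRNAs from the 4.5 and 8 hpf libraries and their presence later are how they were chosen and are not results. The lowest count that any library listed was 2 reads, and an unlisted circRNA was therefore treated as having at most 1 read in a library. The libraries held 9563 to 24580 junction reads at depths of 54.5 to 76.5 megaunits (1 megaunit is 1000000 of the depth units that the authors' scaling implies). The segmentation library had the fewest junction reads, 148 per megaunit, against 242 at 48 hpf and 349 at 72 hpf. The genome build of the coordinates was not given in the sources used here, so circRNAs are named by chromosome, start and end, and no host gene was assigned. With junction reads and no gene names, stage or tissue markers could not be checked.

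The late-listed circRNAs held a minor part of the reads of each late library. At 24 hpf, 263 of them were listed with 1441 reads, which was 15.1% of the junction reads of the library (exact Clopper-Pearson 95% interval 14.4 to 15.8). At 48 hpf, 370 were listed with 2580 reads, 16.3% of the library (15.7 to 16.9). At 72 hpf, 370 were listed with 3692 reads, 19.4% of the library (18.8 to 19.96). Without the 3 circRNAs that had most reads, the shares were 12.5%, 15.5% and 12.9%, so the highest share was then at 48 hpf and no longer at 72 hpf. By number, the late-listed circRNAs were 14.3%, 14.5% and 16.4% of the circRNAs of the 24, 48 and 72 hpf libraries.

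Most late-listed circRNAs had few reads. The median was 8 reads over 24, 48 and 72 hpf, the lowest 4 and the highest 570. Just inside the rule stood 54 circRNAs with 2 reads in each of 2 libraries, while 70 had at least 20 reads in all and 20 had at least 50. The 10 with most reads held 2414 of the 7713 reads, or 31.3%. Just outside the rule stood 3879 circRNAs listed in only 1 late library and in neither early one, led by chr5:31688205-31704934 with 1689 reads at 72 hpf. The next 4 were KN150127.1, 6486 to 9445, with 1275 reads at 48 hpf, chr5:31690705-31707442 with 984 at 72 hpf, chr3:18251099-18253055 with 804 at 48 hpf, and chr14:3395835-3406037 with 517 at 72 hpf. Each of these 5 had more reads than any late-listed circRNA except the last, which had fewer than the leading 2. On the other edge, 54 circRNAs had exactly 2 early reads and at least 2 late libraries. The one with most late reads among these was chr14:3014852-3094752 with 2 reads at 4.5 hpf and 2, 8 and 54 reads at 24, 48 and 72 hpf. It was followed by chr23:31847631-31851950 with 6, 8 and 12 late reads, chr2:56144076-56160334 with 9, 5 and 10, chr9:30947210-30954170 with 2, 3 and 18, and chr16:52717960-52726681 with 6, 12 and 2.

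Depth limits what an unlisted early value means. The late level of each circRNA, pooled over the 3 late libraries (185 megaunits), was compared with 1 read in each early library (142 megaunits). That is the most that an unlisted circRNA was taken to have, since the circRNA caller and its filters are not known. Since the early value is the same for every one of the 453, the lower 95% limit of this ratio is a cut on late reads alone and no test of early absence: it lies above 1 from 12 late reads, which 144 had, and not at 11 or fewer, as for the other 309. With 0 reads set for each early library, 291 lay above it.

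The listing patterns differed in size and in reads. Listing at 48 and 72 hpf alone was the most common pattern, with 190 circRNAs (41.9%), followed by all 3 late libraries with 97 (21.4%). Listing at 24 and 48 hpf alone and at 24 and 72 hpf alone each had 83 (18.3%). Of the 457 circRNAs listed in at least 2 late libraries and also early, 201 were listed in all 3 late ones. The 24 hpf library listed the fewest circRNAs of the late libraries, 1834 against 2547 at 48 hpf and 2252 at 72 hpf. What this does to the patterns was not tested. The circRNAs of all 3 libraries had a median of 16 late reads, against 8 in the pattern of 48 and 72 hpf, but their sum runs over 3 listed libraries and not 2, so its lowest possible value is 6 reads and not 4. The medians were lower still at 7 in that of 24 and 48 hpf and at 6 in that of 24 and 72 hpf. By library, the medians of the 97 were 4, 7 and 5 reads at 24, 48 and 72 hpf, and those of the 190 were 4 and 4 at 48 and 72 hpf. The 97 held 38.5% of all reads of the late-listed circRNAs. The number that met the rule depended on every late library: 287 were listed in both others without the 24 hpf library, and 180 each without the 48 or the 72 hpf library.

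**Figure D1:**
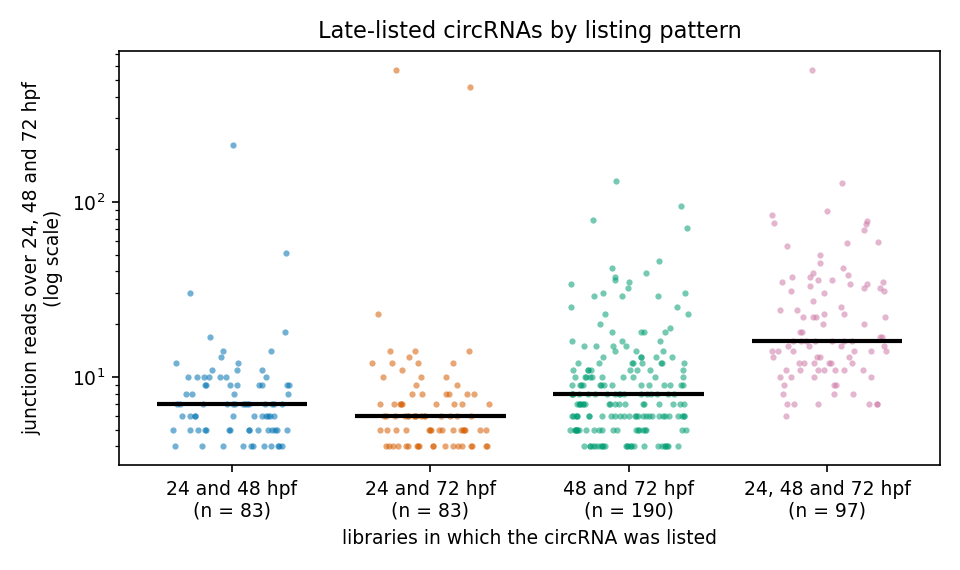
Junction reads over 24, 48 and 72 hpf (vertical axis, log scale) of each late-listed circRNA, grouped by the libraries in which it was listed; each point is 1 circRNA and the bar is the group median. The medians were 7, 6, 8 and 16 reads from left to right, and the points above 400 reads lay in the patterns of 24 and 72 hpf and of all 3 libraries.

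Among the circRNAs listed at 24, 48 and 72 hpf, the circRNA chr5:31666036-31700665 had most reads, with 39, 123 and 408. In SRPBM, the authors' depth-scaled score, it stood at 4.02, 12.5 and 49.9, so each later library was higher than the one before. Set against 6 early reads (3 for each unlisted library), its pooled late level was at least 73.3-fold higher than the early one, a value that the rule itself chose. Its place, which held 9 circRNAs, had 327, 146 and 3181 reads at 24, 48 and 72 hpf. The rise at each step was thus that of the listed junction and not of the place. Next came chr19:18954243-18955394, with a span of 1152 bp and 26, 50 and 53 reads, and chr15:21164472-21187038 with 18, 43 and 28. The circRNA chr13:1410993-1412348 had 9, 27 and 48 reads. The circRNA chr19:506600-508028 varied least among these 5, with 24, 25 and 29 reads and a 1.44-fold range of SRPBM. In contrast, chr12:43933508-43934194 had 3, 30 and 43 reads, a 17.0-fold range.

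Per depth, 46 of the 97 were highest at 72 hpf, 40 at 48 hpf and 11 at 24 hpf, and 60 were lowest at 24 hpf. Their level was higher at each step for 28 and lower at each step for 4, counted with no minimum size, so some steps are no larger than counting error. These counts depended on the scaling. Scaled to the total junction reads of each library, 14 were higher and 20 lower at each step. On that scale 30 were lowest at 24 hpf and 45 at 72 hpf. With TMM scaling, 23 were higher and 6 lower at each step, and 48 were lowest at 24 hpf. The stage of the peak depended on the scaling too. With counts scaled to the total junction reads of each library, 24 were highest at 72 hpf, 41 at 48 hpf and 32 at 24 hpf. With TMM scaling the numbers were 39, 42 and 16. The number highest at 48 hpf was thus 40 to 42 under the 3 scalings, while the others moved. The circRNAs counted at 48 hpf were not all the same ones. For example, chr16:53064191-53065224 with 21, 22 and 7 reads was highest at 48 hpf per depth. Scaled to total junction reads, it was highest at 24 hpf. The median ratio of the highest to the lowest level was 2.77. Among the 201 circRNAs that were listed in all 3 late libraries and also at 4.5 or 8 hpf, 93 were highest at 72 hpf, 62 at 48 hpf and 46 at 24 hpf per depth.

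The pattern of 48 and 72 hpf was led by chr9:37683792-37695047 with 51 reads at 48 hpf and 81 at 72 hpf. The circRNA chr23:3684718-3686798 had 64 and 31 reads, and chr5:68822794-68844096 had 46 and 33. Below these were chr18:47443382-47843816 with 23 and 48 reads over a span of 400435 bp, and chr17:53250330-53253225 with 17 and 29. The 190 together had 1111 reads at 48 hpf and 1177 at 72 hpf. The 72 hpf library had lower depth but more junction reads (19036 against 15850), so which level was the higher depends on the scaling.

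Listing at 24 and 48 hpf alone was led by chr1:58724086-58783408 with 119 and 93 reads and none listed at 72 hpf. At that depth its level at 72 hpf was at least 33.4-fold lower than at 24 hpf and at least 25.8-fold lower than at 48 hpf. Here and below, such a bound sets the unlisted library at 3 reads and is not a 95% limit. With 1 read set there, the lower 95% limits were smaller, 17.6 and 13.5. The circRNA chr22:20112062-20121516 had 48 reads at 24 hpf and 3 at 48 hpf, a level 16.2-fold lower at 48 hpf (95% interval 5.22 to 81.3). The third in reads was chr16:42037202-42037225 with 11 and 19 reads. Its listed span was 24 bp, the shortest of all circRNAs in the series, and no exon structure was at hand to judge it. Below it, chr5:69092713-69102616 had 14 and 4 reads, and chr23:43837698-43842458 had 10 and 7.

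A gap at 48 hpf marked the 83 circRNAs of 24 and 72 hpf. Only 3 of them had at least 20 late reads, and 9 had at least 5 reads at both stages. The circRNA chr3:31968704-31994174 had 202 reads at 24 hpf and 254 at 72 hpf and was not listed at 48 hpf. The bound at 48 hpf was at least 68.2-fold lower than at 24 hpf and at least 102-fold lower than at 72 hpf. Its place, which held 5 circRNAs, had 36, 205, 0 and 275 reads at 8, 24, 48 and 72 hpf, so no circRNA of that place was listed at 48 hpf. On scaffold KN150127.1, 3657 to 22829 had 3 reads at 24 hpf and 565 at 72 hpf, 224-fold higher (76.1 to 1088). Its place had 7, 1585 and 1942 reads at 24, 48 and 72 hpf, so other circRNAs of that place were listed at 48 hpf. The third, chr24:41854377-41869907 had 18 and 5 reads. Those of chr13:4324303-4327519, chr1:39975272-39976256, and chr7:18567263-18575234 followed with 14 reads each.

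**Figure D2:**
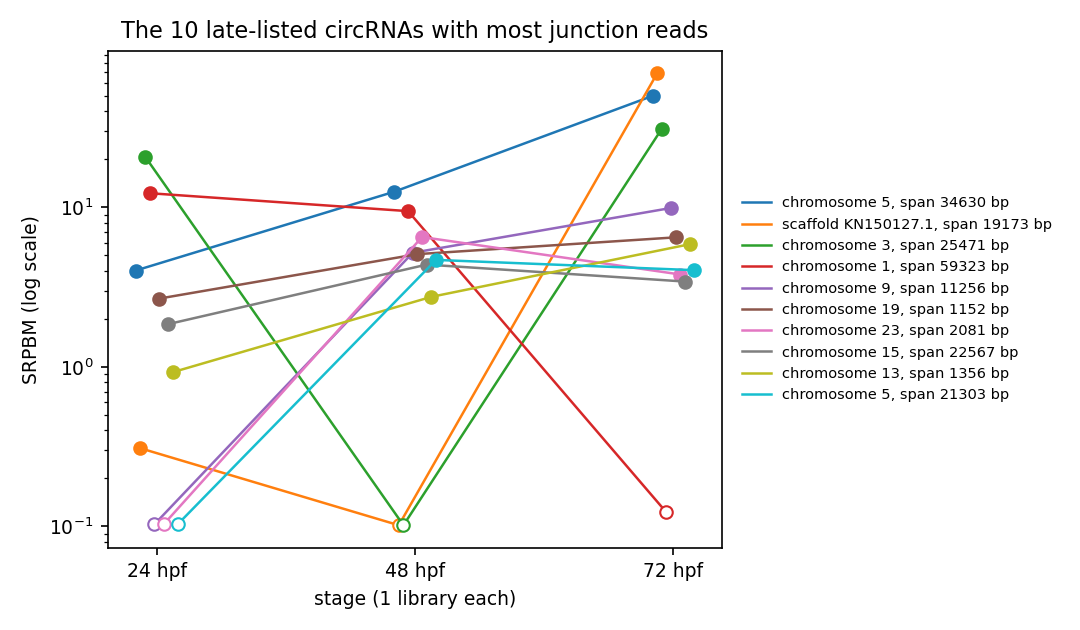
SRPBM at 24, 48 and 72 hpf (log scale, 1 library per stage) of the 10 late-listed circRNAs with most junction reads, named by chromosome and span; filled points are listed values and open points mark libraries where the circRNA was not listed, drawn at the SRPBM of 1 read. The 34630 bp circRNA of chromosome 5 was higher at each step, while the 25471 bp circRNA of chromosome 3 was listed at 24 and 72 hpf only.

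Between late stages the late-listed circRNAs were compared as ratios of junction reads per depth. A circRNA entered with at least 10 reads over both libraries and was called at a ratio of 2 or more. From 24 to 48 hpf, 55 of 96 were higher and 12 lower, while 43.8% of all 347 circRNAs tested were called higher and 22.2% lower. Part of these calls followed from the rule, since a circRNA with a gap at 24 or 48 hpf can only be a bound. Among those listed in both libraries, 33 of 71 were higher (46.5%) and 9 lower, against a background of 33.6% higher and 16.2% lower among all 235. A circRNA of both libraries without early reads is late-listed by the rule, so the other 164 of the 235 were all listed early. The contrast is thus with early-listed circRNAs, and what early listing does to the shares was not tested. The median log2 ratio was 0.93 for the 71 and 0.57 for the 235. The 95% interval of the single ratio excluded 1 for 14 of the 33 and for 3 of the 9.

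From 48 to 72 hpf, 46 of 138 were higher and 23 lower, with a background of 34.3% higher and 22.1% lower. The share called higher, 33.3%, was close to that background. Among those listed in both libraries, 44 of 133 were higher and 20 lower, with 27.1% and 15% called in the background, and the median log2 ratio was 0.27 for the 133 and 0.27 for all 321. From 24 to 72 hpf, 64 of 99 were higher and 13 lower, where the background was 51.1% higher and 18.3% lower. Of those listed in both, 38 of 66 were higher (57.6%) and 6 lower, against 42.1% and 11.1% of all 235, with median log2 ratios of 1.42 and 0.73. These comparisons share libraries with each other, so they are not independent. The backgrounds include the late-listed circRNAs. Of the circRNAs listed in both libraries, the other 188 of 321 and 169 of 235 were likewise all listed early.

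How the calls split changed with the scaling. Of those from 24 to 48 hpf, 82.1% pointed up per depth. Dividing by all junction reads of the library instead took out a log2 shift of 0.71 and left 70.4%. From 48 to 72 hpf the split turned, from 66.7% higher per depth to 40.3% (25 higher, 37 lower) with a shift of 0.53 removed. From 24 to 72 hpf it went from 83.1% to 67.2% with a shift of 1.24 removed. TMM removed 0.28, 0.16 and 0.44, and left 79.3%, 56.1% and 78.1% of the calls higher. Among all circRNAs tested, the calls per depth also pointed mostly up. They were 152 higher and 77 lower from 24 to 48 hpf, 146 and 94 from 48 to 72 hpf, and 184 and 66 from 24 to 72 hpf. Calls of all circRNAs were not counted under the other scalings, so the rescaled splits have no background.

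Single circRNAs with the clearest differences at 48 over 24 hpf were mostly bounds. The circRNA chr23:3684718-3686798 was at least 21.1-fold higher, chr9:37683792-37695047 at least 16.8-fold, chr5:68822794-68844096 at least 15.1-fold, and chr25:31233833-31237158 at least 8.89-fold. Listed in both libraries was chr13:46247836-46251009 with 2 and 30 reads, 14.8-fold higher (3.76 to 128). Lower, besides the circRNAs of chromosomes 3 and 22 above, were chr24:41854377-41869907 by at least 6.07-fold, chr13:4324303-4327519 by at least 4.05-fold, and chr5:69092713-69102616 with 14 and 4 reads, by 3.54-fold (1.11 to 14.8).

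At 72 over 48 hpf, chr22:33699626-33725508 went from 9 to 53 reads and was 7.08-fold higher (3.46 to 16.3). The circRNA chr7:68832582-68904333 had 2 and 21 reads and was 12.6-fold higher (3.09 to 111). The circRNA chr5:31666036-31700665 was 3.99-fold higher (3.25 to 4.92), and the scaffold KN150127.1 circRNA, 3657 to 22829, was at least 226-fold higher. The latter bound holds for the listed junction alone, as its place had 1585 reads at 48 hpf and 1942 at 72 hpf. In the other direction, chr3:36327770-36330690 went from 20 to 3 reads, 5.55-fold lower (1.64 to 29.1), and chr10:1748345-1771179, from 13 to 2, 5.41-fold lower (1.22 to 49.4). The 24 bp circRNA of chromosome 16 was at least 5.27-fold lower, and chr23:1385237-1427703 at least 3.05-fold. At 72 over 24 hpf, chr5:31666036-31700665 was 12.4-fold higher (8.93 to 17.7), chr9:37683792-37695047 at least 32.1-fold, chr18:47443382-47843816 at least 19.003-fold, and chr5:68822794-68844096 at least 13.1-fold. Lower over the same interval were chr22:20112062-20121516 by at least 13.5-fold and chr5:69092713-69102616 by at least 3.93-fold. For chr12:16472925-16514043, and for the 24 bp circRNA of chromosome 16, the bound was 3.09-fold.

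The span, measured on the genome between both junction positions, introns included, was not used by the rule. The late-listed circRNAs had a median span of 3880 bp (order-statistic 95% interval 3460 to 4369). The median was 5236 bp (4591 to 6123) for the 457 circRNAs that were listed in at least 2 late libraries and also at 4.5 or 8 hpf, and 5563 bp (5228 to 5832) for the 3879 of 1 late library. These intervals treat circRNAs as independent units and do not cover variation between libraries. Spans of over 2 to 10 kb made up 49.2% of the late-listed circRNAs (44.5 to 53.9), against 42.5% (37.9 to 47.1) of those also listed early. Spans of over 10 to 50 kb made up 16.1% (12.8 to 19.8) against 21.7% (17.97 to 25.7). At the extremes they made up 7.95% (5.63 to 10.8) under 500 bp against 10.1% (7.46 to 13.2), and 3.31% (1.86 to 5.40) over 100 kb against 5.91% (3.93 to 8.48). The intervals of the single span classes overlap between these sets, while those of the medians do not. Among those also listed early, the median was 4690 bp (3810 to 5915) for the 251 of 1 early library. It was 6203.5 bp (4996 to 8078) for the 206 of 2 early libraries. The interval of the 251 overlaps that of the late-listed circRNAs. With at least 10 late reads, the intervals of the late-listed (3269 to 4916 bp) and the also early-listed (4341 to 6175 bp) overlap too.

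Within the late-listed circRNAs, those of all 3 late libraries had a median span of 3402 bp (2861 to 4260), while the 201 of all 3 late libraries that were also listed early had one of 5671 bp (4871 to 7384). For 48 and 72 hpf alone the median was 3444.5 bp (2887 to 4516), for 24 and 48 hpf 4761 bp (3807 to 7189), and for 24 and 72 hpf 5056 bp (3734 to 8543). With at least 20 late reads the medians were 4194.5 bp (2983 to 7159) for 70 late-listed circRNAs and 6203.5 bp (4512 to 9136) for 142 also listed early, and these intervals overlap. Weighted by late reads, the medians were 7159 bp and 7374 bp, so over all reads the difference was small. The 3 circRNAs with most reads had spans of 19173 to 34630 bp, and without them the read-weighted median of the late-listed circRNAs was 4129 bp. For the circRNAs also listed early, it was 8374 bp without their own 3 with most late reads. The small difference over all reads thus depended on few circRNAs.

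**Figure D3:**
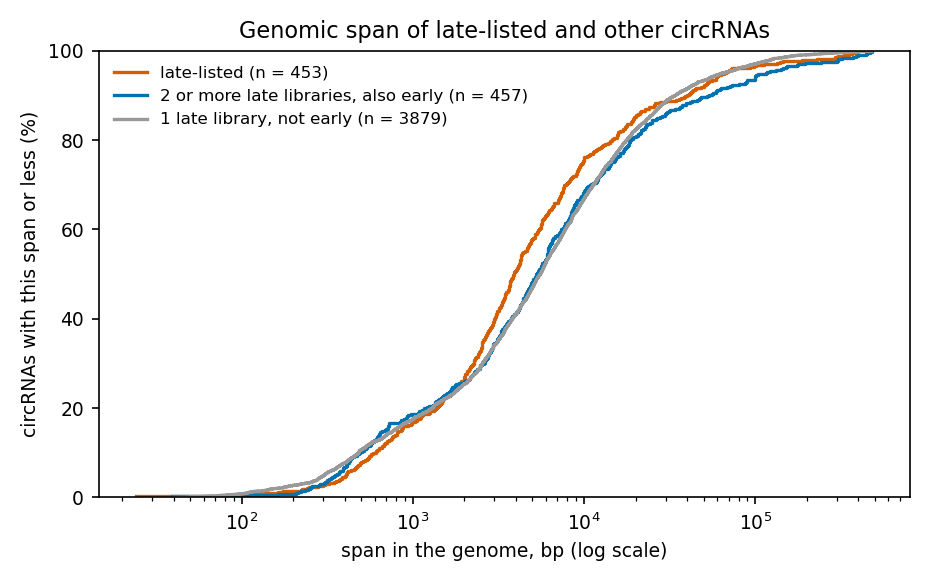
Share of circRNAs (vertical axis, %) with a genomic span at or below the value on the horizontal axis (bp, log scale), for the 453 late-listed circRNAs, the 457 listed in at least 2 late libraries and also early, and the 3879 of 1 late library. The late-listed curve lies above the others between about 2 and 10 kb, with medians of 3880, 5236 and 5563 bp.

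The longest spans included some well covered circRNAs. Of 15 over 100 kb, 6 had at least 20 late reads. Besides chr18:47443382-47843816, these were chr8:53704190-54058895 (3, 22 and 14 reads), chr24:37086321-37388923 (3, 4 and 29), chr22:27267432-27634075 (0, 18 and 17), chr25:9696010-9990352 (2, 4 and 25), and chr4:60868664-61197888 (0, 9 and 16). Of 36 under 500 bp, the 24 bp circRNA of chromosome 16 had most reads, followed by chr24:1165403-1165817 with 16 and 13 reads at 48 and 72 hpf, and chr10:44541958-44542314 with 2, 11 and 10.

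The late-listed circRNAs were spread over all 25 numbered chromosomes, with 10 to 27 on each, and 9 lay on unplaced scaffolds. Chromosomes 5 and 16 held 27 each, and chromosomes 1 and 23 held 25 each. Of the 910 circRNAs listed in at least 2 late libraries, 49.8% were late-listed (46.5 to 53.1). By chromosome this share lay between 39.3% on chromosome 25 (11 of 28, 21.5 to 59.4) and 64.7% on chromosome 11 (22 of 34, 46.5 to 80.3), and on 0 of the 25 did the interval leave out the overall share. By reads the chromosomes were less even, with 929 late reads on chromosome 5 and 662 on chromosome 3, of which 570 and 456 came from 1 circRNA each.

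Late-listed circRNAs seldom lay together, and their gaps were close to those among circRNAs also listed early. The median gap from a late-listed circRNA to the nearest other one on its chromosome was 801061 bp, against 796208 bp among those also listed early. Within 100 kb of another lay 84 late-listed circRNAs (18.5%) and 81 of those also listed early (17.7%). Overlap with another of the same set was seen for 32 (7.06%) against 53 (11.6%). When late-listed circRNAs with spans of at most 50 kb were merged wherever they overlapped, 12 places held 2 of them and no place held more. Of these 12 pairs, 4 shared their start, 5 shared their end, and 9 lay where no circRNA was listed at 4.5 or 8 hpf. Such places were not counted for the circRNAs also listed early, so these numbers have no background.

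The pairs with most reads are given with their values. Both chr20:1940067-1959444 and 1940067 to 1959582 shared a start, with 4, 10 and 18 reads for the first and 3, 14 and 42 reads for the second at 24, 48 and 72 hpf. Likewise, chr1:20177962-20181413 and 20178012 to 20181413 shared an end, with 0, 2 and 10 reads and 3, 6 and 24 reads. Both chr12:16472925-16514043 and 16497208 to 16514043 also shared an end and had most reads at 24 hpf, with 11, 3 and 0 and with 14, 6 and 5. The pair of chromosome 23 with most reads, 3683090 to 3685168 and 3684718 to 3686798, shared no end, but the spans of 2079 and 2081 bp were nearly equal and the positions 1628 bp apart. Their reads were 19 and 11, and 64 and 31, at 48 and 72 hpf. The pair chr5:68816087-68840198 and 68822794 to 68844096 had 17 and 25 and 46 and 33 reads at those stages. Per depth the first was higher at 72 hpf (1.73 and 3.06 SRPBM) and the second at 48 hpf (4.68 and 4.04 SRPBM). At 72 over 48 hpf the first was 1.77-fold higher (0.917 to 3.49) and the second 1.16-fold lower (0.726 to 1.87). Both intervals include 1, so no difference in course is drawn from them. The circRNA chr13:46232110-46251009 had 2 reads each at 24 and 72 hpf beside the 2, 30 and 13 of 46247836 to 46251009.

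At most places of late-listed circRNAs, no other circRNA was listed early. Of the 416 with spans of at most 50 kb, 80 overlapped a circRNA listed at 4.5 or 8 hpf by at least 1 bp (19.2%, 15.6 to 23.4). Of the circRNAs also listed early, 30.5% (26.1 to 35.2; 125 of 410) overlapped another early-listed circRNA. Among those of 1 late library the share was 19.5% (18.2 to 20.8; 706 of 3620), close to that of the late-listed circRNAs. By listing pattern it was 25% for 24 and 48 hpf (15.8 to 36.3), 20.8% for 24 and 72 hpf (12.4 to 31.5), 17.5% for 48 and 72 hpf (12.2 to 24.1) and 16.3% for all 3 (9.42 to 25.5), with overlapping intervals. It was 18.8% for late-listed circRNAs with under 10 late reads and 20% for those with at least 20. The shares depended on how an overlap was counted, from 6.25% where at least 50% of both spans had to overlap to 23.8% over all spans. Under those settings they were 12.2% and 38.7% for the circRNAs also listed early, so the late-listed share stayed below theirs. The circRNAs of 1 late library were not counted under those settings. Those also listed early were chosen by their early listing and had longer spans, and what either does to the share was not tested.

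Merging all circRNAs with spans of at most 50 kb gave 402 places with a late-listed circRNA. In 242 of them it was the only circRNA. In 322 (80.1%), with 332 late-listed circRNAs, no circRNA of at most that span was listed at 4.5 or 8 hpf. This share was not counted for places of other circRNAs, so it has no background and is a description only. Among the 322 were chr9:37683792-37695047, chr19:18954243-18955394, and the region of chr5:31666036-31708780, which held 9 circRNAs. In that region the late-listed circRNA had 15.6% of the late reads. The other 8 were each listed in 1 library only, and 7 of them had spans between 16001 and 17825 bp, among them 31690298 to 31707047 with 264 reads at 24 hpf and those with 1689 and 984 reads at 72 hpf. The other 80 places, with 84 late-listed circRNAs, had a median of 5 early reads and 16 late reads. In 50 of them the late-listed circRNAs held over 50% of the late reads, and 8 had at least 20 early reads.

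The place with most early reads was scaffold KN150127.1, 3558 to 22829, with 8494 reads at 4.5 and 8 hpf together. Its late-listed circRNA, 3657 to 22829, shared the start at 3657 with 3 early-listed circRNAs, of which 3657 to 4045 had 22, 4398, 4, 129 and 1312 reads from 4.5 to 72 hpf. The place chr22:20112062-20129240 held 6 circRNAs with 17, 40, 50, 11 and 3 reads. There, the late-listed 20112062 to 20121516, with 48 reads at 24 hpf, ended 12 bp before an early-listed circRNA of the same start, which had 11 reads at 8 hpf and none later. Whether these are separate circRNAs or 1 junction placed at shifted positions was not determined. The place chr8:16653399-16676388 held 6 circRNAs with 7, 9, 157, 94 and 133 reads. Its pair of late-listed circRNAs had 5 and 7 and 2 and 5 reads at 24 and 72 hpf, while 16656395 to 16668464 was listed from 4.5 hpf with 2, 5, 95, 94 and 121.

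**Figure D4:**
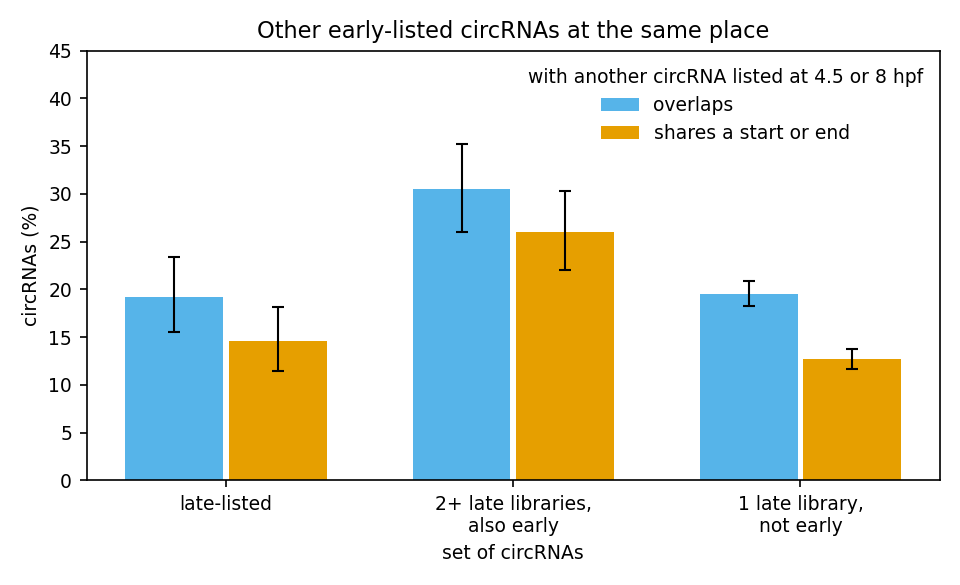
Share of circRNAs (vertical axis, %) that overlapped, or shared an exact start or end with, another circRNA listed at 4.5 or 8 hpf, for the late-listed circRNAs and for both other sets; bars are shares and lines are exact 95% intervals. The late-listed shares were 19.2% and 14.6%, below the 30.5% and 26.0% of the circRNAs of 2 or more late libraries that were also listed early. Those of 1 late library had 19.5% and 12.7%.

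Some late-listed circRNAs used a back-splice position that was in use early. An exact start or end was shared with an early-listed circRNA by 66 of the 453 (14.6%, 11.5 to 18.2). The share was 26.0% (22.1 to 30.3; 119 of 457) for the circRNAs also listed early, counting other circRNAs only, and 12.7% (11.7 to 13.8) for those of 1 late library. With early circRNAs of at least 5 reads the shares were 5.96% and 13.8% for the late-listed and the also early-listed. The 66 formed 91 pairs with 88 early circRNAs, of which 47 shared the start and 44 the end. The genomic span of the late-listed circRNA was shorter than that of every early partner for 36, longer than every one for 24 and between partners for 6; the lengths of the rings themselves are not known. Partners had a median of 3 early reads, and 51 of the 91 pairs had a partner that was not listed at 24, 48 or 72 hpf. The share not listed late was not counted for all early-listed circRNAs, so this number has no background and is a description only.

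Examples with more reads show both kinds of partner. The late-listed chr12:43933508-43934194 (3, 30 and 43 reads) ended at the same position as 43923411 to 43934194, which had 3 reads at 4.5 hpf and 2 and 4 at 48 and 72 hpf. The circRNA chr21:33354664-33358711 had 8 and 21 reads at 48 and 72 hpf and shared its start with 33354664 to 33368721, which had 7, 4, 4 and 14 reads from 8 hpf. The circRNA chr10:44541958-44542314 (2, 11 and 10 reads) ended with 44527274 to 44542314, which had 6, 18, 64 and 53 reads from 8 hpf. The early partner was the stronger on chromosome 17, where 48844580 to 48934121 had 209, 136, 67, 24 and 55 reads and the late-listed 48844580 to 48943281 had 5 and 7 at 24 and 72 hpf. In contrast, chr25:9696010-9990352 with 2, 4 and 25 reads, shared its end with 9621745 to 9990352, which had 14 reads at 4.5 hpf and was not listed later.

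Some late-listed circRNAs had a neighbour of like span. These shares were chosen for description after their values were seen. Among those with spans of at most 50 kb, 39 of 416 (9.38%, 6.75 to 12.6) had another circRNA in any library whose span was within 5% of theirs and whose start lay within 100 kb. This share was 5.31% (2.86 to 8.90) with under 10 late reads, 10.8% (5.71 to 18.1) with 10 to 19, and 23.3% (13.4 to 36.04; 14 of 60) with at least 20. For the circRNAs also listed early it was 7.32% (4.99 to 10.3) over all and 6.25% (2.55 to 12.5; 7 of 112) with at least 20 late reads. Of the 14, 4 form 2 pairs of late-listed circRNAs that are each other's neighbour, on chromosomes 20 and 23, so they are not independent and no difference between the sets is drawn from these intervals. Such a neighbour at 4.5 or 8 hpf was found for 12 of the 416 late-listed circRNAs (2.88%). The share was 3.41% (14 of 410) for the circRNAs also listed early and 3.73% (135 of 3620) for those of 1 late library. An early-listed neighbour of like span was thus about as rare in each set. Of the 44 pairs of a late-listed circRNA and a neighbour of like span, counted from each late-listed circRNA, 22 overlapped, and in 29 the neighbour was listed in 1 library only. The circRNA chr5:20477739-20482592 and its neighbour 20477735 to 20482588 had the same span of 4854 bp, 4 bp apart, with 3 and 8 reads at 48 and 72 hpf and 3 reads at 48 hpf.

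Within 100 kb of the chromosome 15 circRNA, 21164472 to 21187038, there was an early-listed neighbour of like span. It was 21178815 to 21201867, of 23053 bp, with 15, 4, 4 and 7 reads from 8 to 72 hpf. A further one of 22906 bp, 21180650 to 21203555, was listed at 24 hpf only with 10 reads. Within 100 kb of the chromosome 23 pair lay 10 other circRNAs, of which none was listed at 4.5 or 8 hpf. The one with most reads was 3635683 to 3640895, with 118 reads at 48 hpf only. The bounds on ratios use exact positions, and where a neighbour of like span exists they hold for the listed positions alone, since reads of 1 junction assigned to several positions were not looked for.

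**Figure D5:**
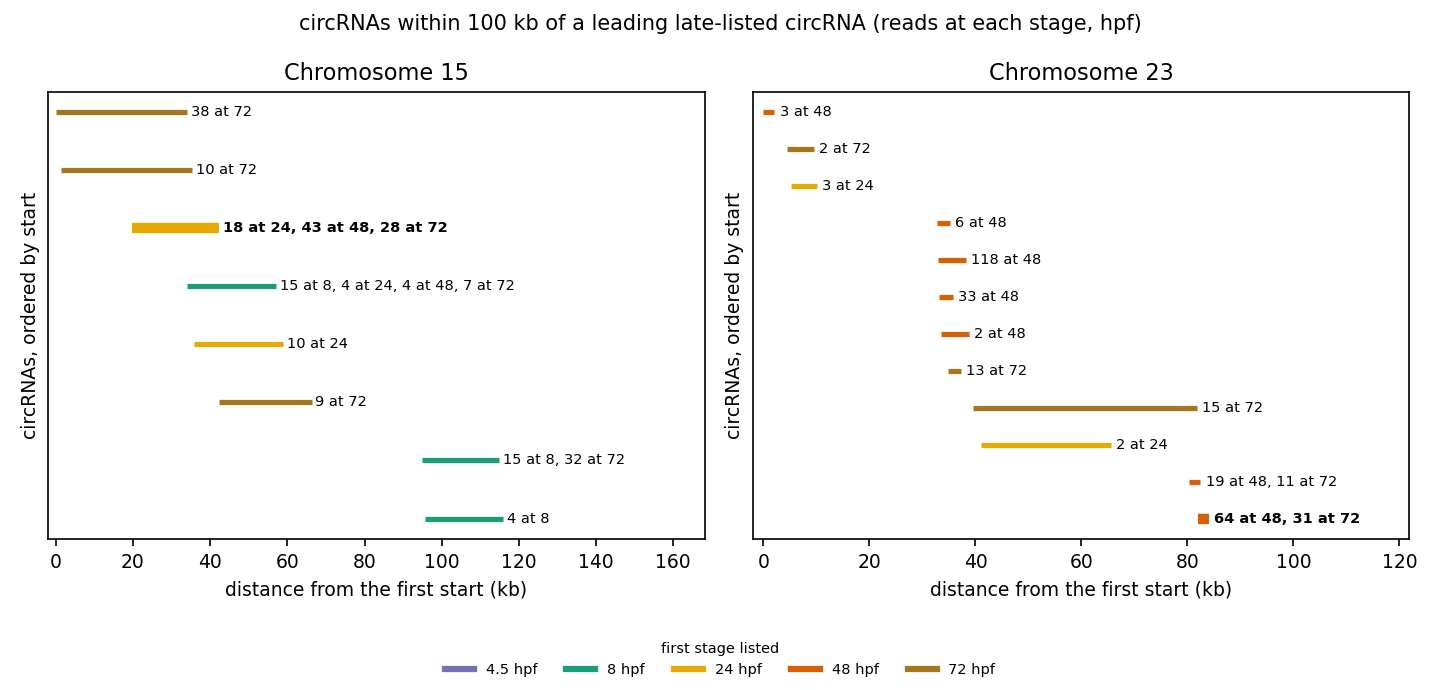
circRNAs with spans of at most 50 kb near the leading late-listed circRNA of chromosome 15 (left) and of chromosome 23 (right), against the distance from the first start (kb); each line is 1 circRNA, coloured by the first stage at which it was listed, with its reads at each stage, and the leading circRNA is drawn thicker. On chromosome 15, 3 neighbours were first listed at 8 hpf, while on chromosome 23 all were first listed at 24 hpf or later.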

How the data were processed

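Junction reads were counted in 5 libraries of whole zebrafish embryos, 1 per stage, strand-specific and ribosomal RNA-depleted per the labels. The deposited library tables give whole-number counts of junction reads per circRNA, with a minimum of 2, and the deposited series table gives the counts and a depth-scaled score, SRPBM per the file headers, for the 1829 circRNAs of at least 2 libraries, with 0 mismatches between the tables. Per the submitters' processing notes, BWA (0.7.5a-r405) was among the tools, as was edgeR (3.12.1), with no role stated. The circRNA caller was not given in the sources used here, nor was the genome build. SRPBM was the count times 1 constant per library, and depth was 1000000000 divided by that constant and by 150. Whether this unit means single reads or pairs was not stated.

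The members and lists were chosen with earlier results of these data known. The early libraries were those of 4.5 and 8 hpf and the late ones those of 24, 48 and 72 hpf. Ratios of counts per depth carry exact conditional 95% Poisson intervals, shares Clopper-Pearson intervals and medians order-statistic intervals; the sources used here mention no molecular identifiers, so reads may repeat molecules and intervals may be too narrow. In a ratio, an unlisted circRNA was set at 3 reads per library and the ratio given as a bound, which is not a 95% limit; for the ranking of bounds and for intervals it was set at 1 read. The span was end minus start plus 1. Named were, by rule, the 10 circRNAs with most late reads, 5 per listing pattern, 5 per direction and comparison by the interval bound nearest 1, and the leading places; others, such as partners, neighbours and long or short circRNAs, were chosen after their values were seen. The rule on host genes was dropped, since the gene table at hand is of an assembly that the deposited files do not name. Python 3.11.15, numpy 2.4.6, pandas 2.3.3, scipy 1.17.1 and matplotlib 3.10.9 were used, with TMM factors from edgeR 4.0.16 in R 4.3.3. The ratios were tested on simulated data without variation between libraries, where 90.8%, 96.9% and 93.8% of circRNAs changed 4-fold were called at 48 over 24, 72 over 48 and 72 over 24 hpf, and the intervals held the true ratio for 96.6%, 96.2% and 98.2% of 327, 396 and 333 circRNAs. The simulated counts had no listing minimum and no value set for unlisted circRNAs, unlike the data. How many unchanged circRNAs were called in the simulation was not counted. Alternatives tried were other scalings, read minimums, ratios, span limits and overlap rules.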

Additional observations from a re-analysis of the deposited data

How the results depend on the processing

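Alternatives on single late libraries, on peak stages and on the circRNAs also listed early were chosen after the data were seen. No paired analysis was possible because each stage had 1 library. Depth limits what an unlisted value means, and the cause of the changes below was not tested beyond what fewer reads or libraries by construction give. With at least 5 reads in each of 2 late libraries, 102 circRNAs met the rule. Without the 24, 48 or 72 hpf library, 287, 180 and 180 were listed in both others. With 0 early reads assumed, 291 and not 144 had a late level whose lower limit lay above the early one, again a cut on late reads. Counting early circRNAs within 10 bp at both ends as the same kept the number at 453. The read-weighted median span was 7159 bp. Overlap with early-listed circRNAs was 15.03% for spans of at most 20 kb, 23.8% for all spans, 6.25% for overlap of 50% of both spans and 7.21% for early circRNAs with at least 5 reads, which gave 5.96% for shared ends. With spans of at most 20 kb, 6 places held 2 members.

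Calls at 48 over 24 hpf were 19 higher and 3 lower with at least 20 reads, 88 and 24 with no minimum, and 31 and 6 at a ratio of 4. At 72 over 48 hpf they were 25 and 37 scaled to total junction reads, 22 and 6 with at least 20 reads, 95 and 43 with no minimum, and 17 and 4 at a ratio of 4. At 72 over 24 hpf they were 41 and 20 scaled to totals and 29 and 4 with at least 20 reads. They were 116 and 15 with no minimum, and 44 and 4 at a ratio of 4. Calls among all circRNAs were not counted under these alternatives, so the counts have no background and are descriptions only. With totals, 32 circRNAs peaked at 24 hpf and 24 at 72 hpf.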
